A study of Rattus norvegicus with 2 samples.

Results

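Polycomb repressive complex 2 (PRC2) was followed at the RNA level in rat (Rattus norvegicus) embryonic stem cells through the 9 genes Ezh1, Ezh2, Eed, Mtf2, Phf1, Phf19, Aebp2, Rbbp4 and Rbbp7. They were chosen by gene symbol from a table of 23282 genes, and each had 1 row. Total RNA of an untreated wild-type line, DA-EC8/Rrrc of the Dark Agouti strain, was sequenced in 2 libraries that the series calls biological replicates. The cells were at passage 30, carried a normal karyotype per the labels, and were grown in 2i medium, which inhibits MEK and GSK3. Both samples come from 1 line and form 1 group, so no condition is compared, and differences between genes are read against the spread of the 2 replicates. That spread does not cover errors that both libraries share, such as those of gene models or read mapping. Levels are RPKM, that is reads divided by gene model length in kilobases and by library size in units of 1000000 reads, so that genes of different length can be set side by side. No test between groups could be run. A gene is called detected here when its mean over both replicates is 1 RPKM or more.

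PRC2 places methyl groups on lysine 27 of histone H3, a mark of repressed developmental genes in embryonic stem cells. The core of the complex holds a methyltransferase, Ezh1 or Ezh2, with Eed, which binds the finished mark, the scaffold Suz12, and a histone-binding protein, Rbbp4 or Rbbp7. Accessory subunits define alternative forms of the complex: a Polycomb-like protein (Mtf2, Phf1 or Phf19) marks one form, and Aebp2 with Jarid2 marks another. All of this is background from mammalian cells in general and was not measured here.

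The markers of the labelled cell type were high in both libraries. All 7 stem cell markers looked at reached 10 RPKM, as did 29.4% of all genes. The 7 ran from Esrrb at 70.5 ± 4.95 RPKM to Utf1 at 655 ± 14.1 RPKM (SD, n = 2). Of 8 fibroblast or feeder markers 3 reached a mean of 1 RPKM, with a summed level of 6.18 RPKM in replicate 1 and 11.5 RPKM in replicate 2, and Col1a2 and Lum were listed at 0 in both. The 3 were Col1a1 (3.39 and 6.02 RPKM), Col3a1 (1.32 and 3.16 RPKM) and Thy1 (1.01 and 1.73 RPKM), each higher in replicate 2. None of 4 neural and none of 4 blood cell markers reached 1 RPKM, against the same 46.4% of all genes. Summed levels were 0.249 and 0 RPKM for the neural and 1.12 and 1.43 RPKM for the blood cell markers. The neural genes Pax6, Dcx and Neurod1 and the blood gene Hbb were at 0 in both. The part of other cells in the levels below was not tested, and in bulk RNA fewer cells of a type and less RNA per cell cannot be told apart. The step sizes of the values correspond to read totals of 2991184 in replicate 1 and 3050685 in replicate 2.

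Promoter windows of 5 PRC2 genes are shown, among them the highest (Rbbp7) and the lowest (Phf19) by the levels described below. Rbbp4 is the paralog of Rbbp7, and Ezh2, Mtf2 and Phf19 were picked after the letters were seen, as those that hold an E2F motif. Each window runs from 250 bases before to 50 bases after the gene start in RefSeq (GRCr8 build), 5′ to 3′ on the gene's own strand. Capitals mark E2F motifs (TTTCCCGC, TTTGGCGC, TTTCGCGC or TTTGCCGC) and CCAAT boxes (CCAAT), each on either strand.
Ezh2, GRCr8 chr4:77687134-77687433, minus strand: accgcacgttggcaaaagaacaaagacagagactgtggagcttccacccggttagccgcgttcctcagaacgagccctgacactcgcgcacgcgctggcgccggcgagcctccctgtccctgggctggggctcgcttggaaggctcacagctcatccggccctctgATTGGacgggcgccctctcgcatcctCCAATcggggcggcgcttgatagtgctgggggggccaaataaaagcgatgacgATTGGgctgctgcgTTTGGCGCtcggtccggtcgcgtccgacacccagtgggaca
Mtf2, GRCr8 chr14:1828365-1828664, minus strand: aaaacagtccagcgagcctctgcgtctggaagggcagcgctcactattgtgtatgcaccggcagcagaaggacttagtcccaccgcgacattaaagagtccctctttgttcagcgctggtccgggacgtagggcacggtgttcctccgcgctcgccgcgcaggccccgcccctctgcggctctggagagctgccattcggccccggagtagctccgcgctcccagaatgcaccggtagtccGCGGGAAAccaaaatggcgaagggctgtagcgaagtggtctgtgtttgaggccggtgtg
Phf19, GRCr8 chr3:38593805-38594104, minus strand: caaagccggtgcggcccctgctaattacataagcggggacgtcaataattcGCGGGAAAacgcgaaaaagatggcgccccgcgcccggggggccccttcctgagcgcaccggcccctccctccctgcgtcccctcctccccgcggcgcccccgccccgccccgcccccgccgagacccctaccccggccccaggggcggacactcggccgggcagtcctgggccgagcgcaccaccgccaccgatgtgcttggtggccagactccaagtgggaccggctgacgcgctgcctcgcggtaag
Rbbp7, GRCr8 chrX:35562981-35563280, minus strand: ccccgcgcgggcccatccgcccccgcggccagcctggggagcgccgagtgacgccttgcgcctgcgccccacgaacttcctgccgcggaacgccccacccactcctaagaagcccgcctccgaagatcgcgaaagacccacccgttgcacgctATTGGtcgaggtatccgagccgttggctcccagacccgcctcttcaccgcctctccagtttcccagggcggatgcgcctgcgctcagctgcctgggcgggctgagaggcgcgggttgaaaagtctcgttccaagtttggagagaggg
Rbbp4, GRCr8 chr5:146959452-146959751, minus strand: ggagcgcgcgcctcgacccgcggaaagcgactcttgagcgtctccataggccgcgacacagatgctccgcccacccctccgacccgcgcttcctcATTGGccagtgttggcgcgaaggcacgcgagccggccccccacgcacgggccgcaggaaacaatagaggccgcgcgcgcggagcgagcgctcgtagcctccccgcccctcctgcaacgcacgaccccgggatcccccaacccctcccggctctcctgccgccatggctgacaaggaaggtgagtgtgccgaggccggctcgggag

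RefSeq gave a window for 8 of the 9 genes; Ezh1 had none. An E2F motif, the site of the factors that drive S-phase genes, was found in 3 of these 8 windows (Ezh2, Mtf2 and Phf19). Over all 33469 promoter windows 2.14% held it, and over the 9860 windows of detected genes 4.22% did. In Ezh2 it read TTTGGCGC and began 10 bases into the transcribed side, and in Mtf2 and Phf19 it read GCGGGAAA, the reverse strand of TTTCCCGC. A CCAAT box was found in 5 of 8 windows, against 37.5% of all windows and 38% of those of detected genes, and Ezh2 held 3 copies. The GC box letters GGGCGG were in 6 of 8, against 33.1% of all windows and 63.5% of those of detected genes. The letters TATAAA were in none of the 8, against 14.2% of all windows and 6.34% of those of detected genes. No E2F match overlapped a match of another motif, while neighbouring GC boxes of Phf19 overlapped each other. A match describes letters only, and no binding was measured. The E2F letters stood in the window of the lowest gene, Phf19, as well as in that of Ezh2, and not in that of the highest gene, Rbbp7. The 8 windows held between 15 CpG pairs (Eed) and 39 (Rbbp4), against a median of 21 in the windows of detected genes and 7 in all windows. Eed and Phf1, with 18, lay below the median of detected genes, and the other 6 lay above it.

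All 9 PRC2 genes were detected, as were 46.4% of all genes. Of them 7 reached 10 RPKM, against 29.4% of all genes. Their median level was 41.7 and 41.4 RPKM in replicates 1 and 2, beside 16.8 and 16.6 RPKM for the 10814 detected genes. The 9 genes differed far more among themselves than between libraries, with a mean of 440.4 RPKM for Rbbp7 and 1.05 RPKM for Phf19.

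**Figure D1:**
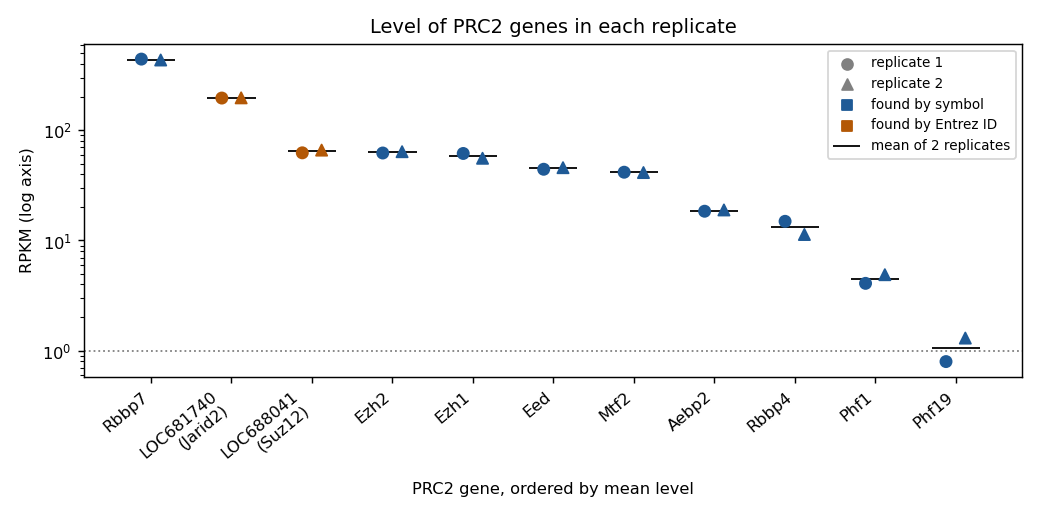
RPKM (log axis) of the 9 PRC2 genes found by symbol (blue) and of Suz12 and Jarid2 found by Entrez ID (orange), ordered by mean level. Circles and triangles are replicates 1 and 2, bars are means, and the dotted line is 1 RPKM; Rbbp7 stands at 440.4 RPKM, a cluster from Suz12 to Mtf2 lies between 41.4 and 66.2 RPKM, and Phf19 straddles the dotted line.

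Both catalytic subunits were present at nearly the same level. Ezh2, the methyltransferase that is most prominent in dividing cells (Entrez gene 312299, rn5 chromosome 4, 141955864 to 142018471, minus strand), measured 62.3 and 64.1 RPKM in replicates 1 and 2. Ezh1, its paralog with weaker methyltransferase activity (Entrez gene 303547, rn5 chromosome 10, 88902523 to 88928835, minus strand), measured 61.7 and 55.8 RPKM in replicates 1 and 2. Both values of Ezh2 lay above both of Ezh1, narrowly so in replicate 1. The log2 ratio of RPKM + 1, Ezh2 over Ezh1, was 0.01 in replicate 1 and 0.20 in replicate 2, and its mean of 0.10 ± 0.13 (SD, n = 2) is smaller than its own spread. The order of Ezh2 and Ezh1 was therefore not resolved by 2 replicates. Ezh2 made up 50.2% of the summed level of the pair in replicate 1 and 53.4% in replicate 2.

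Reads recovered from the value steps show what stands behind these levels. The steps fit 521 and 546 reads for Ezh2, on a gene model of 2794 bp, and 784 and 723 reads for Ezh1, on a model of 4245 bp. The 95% exact Poisson interval of the level in replicate 1 was 57.1 to 67.9 RPKM for Ezh2 and 57.5 to 66.2 RPKM for Ezh1. In replicate 2 it was 58.8 to 69.7 RPKM for Ezh2 and 51.8 to 60.05 RPKM for Ezh1. The intervals of the pair thus overlapped over most of their length in replicate 1 and only between 58.8 and 60.05 RPKM in replicate 2, and they cover counting error only. Where the true model is a multiple of the recovered length, the reads are more than stated and the interval is narrower. Where both ends of a fragment were counted as separate reads, the counts are not independent and the stated interval is too narrow.

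The other core subunits stood close to the enzymes, except for the histone-binding pair. Eed, the subunit that reads the methyl mark (Entrez gene 293104, rn5 chromosome 1, 160493753 to 160520834, minus strand), measured 44.4 and 45.8 RPKM in replicates 1 and 2. Its level was 0.712 times that of Ezh2 in replicate 1 and 0.716 times in replicate 2, a log2 ratio of -0.48 ± 0.01. Against the sum of Ezh1 and Ezh2 the log2 ratio of Eed was -1.42 ± 0.07 (SD, n = 2). All values of Eed lay below all values of the enzymes.

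Suz12, the scaffold that the enzyme needs for its activity, carries another name in the table. The row LOC688041, described there as Suz12-like, has the Entrez identifier that RefSeq names Suz12 in the GRCr8 assembly (rn5 chromosome 10, 66984133 to 67031129, plus strand). It was looked up after the symbol Suz12 was found to have no row. LOC688041 measured 62.6 and 66.2 RPKM in replicates 1 and 2, which overlaps the values of Ezh2. The log2 ratio, Suz12 over Ezh2, was 0.03 ± 0.03 (SD, n = 2), and Suz12 over Eed was 0.50 ± 0.02. Suz12, Ezh2 and Ezh1 thus lay within 55.8 to 66.2 RPKM in both libraries, with Eed below them.

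Rbbp7 and Rbbp4, the paralogous proteins that bind histones in PRC2 and in other chromatin complexes, stood far apart. Rbbp7 (Entrez gene 83712, rn5 chromosome X, 33995673 to 34012812, minus strand) measured 444.5 and 436 RPKM in replicates 1 and 2. Rbbp4 (Entrez gene 313048, rn5 chromosome 5, 151232120 to 151256539, minus strand) measured 14.9 and 11.3 RPKM in replicates 1 and 2. Rbbp7 was therefore 29.8 times as high as Rbbp4 in replicate 1 and 38.5 times in replicate 2, with a log2 ratio of RPKM + 1, Rbbp4 over Rbbp7, of -4.98 ± 0.24. The difference is far beyond the spread of the replicates. Rbbp7 ranked 81st of all genes, above 99.3% of the detected genes, and Rbbp4 above 43.7% of them.

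The levels of Rbbp4 and Rbbp7, and so the ratio between them, are given as uncertain, since the genome holds copies of both. RefSeq (GRCr8) names 4 pseudogenes of Rbbp4, 1 pseudogene of Rbbp7 and 1 further copy, Rbbp4l1. Of these, Rbbp4l1 has a row in the table, under the symbol RGD1563620, at 0 and 0.255 RPKM in replicates 1 and 2. Mtf2 and Aebp2 have 1 named pseudogene each, and that of Mtf2, LOC365650, was listed at 0 in both libraries. The table also lists Rbbp4 and Rbbp7 as paralogs of each other. How reads that map to several copies were counted is not given in the sources used here. The part of such reads in the low level of Rbbp4 or in the high level of Rbbp7 was not tested. The replicates of Rbbp4 were also farther apart, in relative terms, than those of any other gene of the set but Phf19, with a coefficient of variation of 19.4%. The steps fit 84 reads in replicate 1 and 65 in replicate 2 for Rbbp4, and no read number was recovered for Rbbp7.

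**Figure D2:**
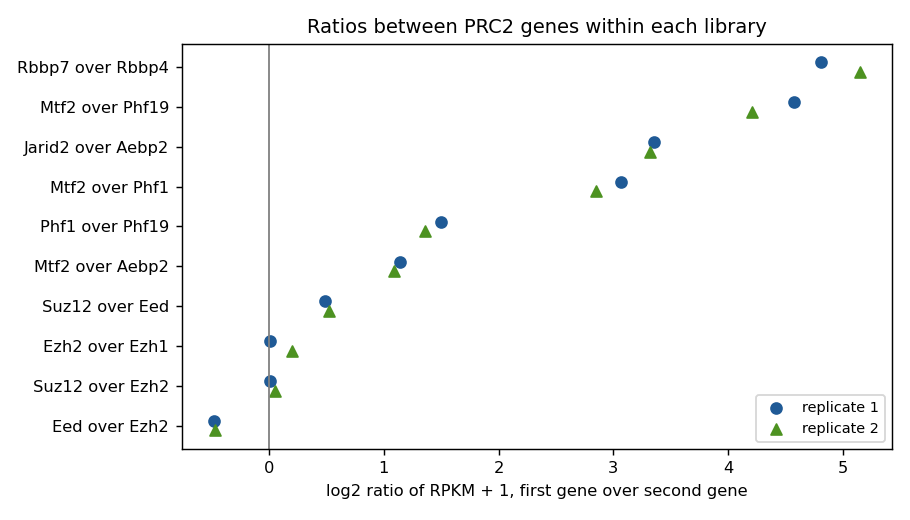
Log2 ratio of RPKM + 1 between pairs of PRC2 genes within each library, first gene over second gene, with circles for replicate 1 and triangles for replicate 2. Ratios of Suz12 and Ezh2 and of Ezh2 and Ezh1 sit near 0, and that of Rbbp7 over Rbbp4 is the largest of the pairs plotted at 4.81 and 5.15.

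Among the Polycomb-like proteins, which help to recruit PRC2 to CpG-rich DNA, Mtf2 was by far the highest. Mtf2 (Entrez gene 360905, rn5 chromosome 14, 2657176 to 2699986, minus strand) measured 41.7 and 41.4 RPKM in replicates 1 and 2. Phf1 (Entrez gene 294287, rn5 chromosome 20, 7586194 to 7590951, plus strand) measured 4.08 and 4.89 RPKM in replicates 1 and 2. Phf19 (Entrez gene 296653, rn5 chromosome 3, 19276705 to 19297793, minus strand) measured 0.794 and 1.30 RPKM in replicates 1 and 2. The values of the 3 genes did not overlap over the replicates. Mtf2 made up 89.5% of their summed level in replicate 1 and 87.0% in replicate 2.

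The log2 ratio of RPKM + 1 was 2.96 ± 0.16 for Mtf2 over Phf1, 4.39 ± 0.26 for Mtf2 over Phf19 and 1.43 ± 0.10 for Phf1 over Phf19 (SD, n = 2). Each is larger than its spread between replicates. As a plain ratio of RPKM, Mtf2 over Phf19 was 52.5 in replicate 1 and 31.9 in replicate 2. With a pseudocount of 0.1 in place of 1 the second rose to 5.22 and the third to 2.03, since the pseudocount of 1 is as large as the level of Phf19. Few reads stand behind the lowest gene. The steps fit 3 and 5 reads for Phf19, or a common multiple of these, against 27 and 33 for Phf1 and 318 and 322 for Mtf2. The 95% exact Poisson interval of Phf19 in replicate 1 was 0.164 to 2.32 RPKM on the smallest of these read numbers. Phf19 is the gene of the set whose detection depends on the threshold: replicate 1 alone, or a minimum of 3 RPKM, leaves 8 of 9 genes detected.

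The subunits of the other form of the complex were unequal too. Aebp2, a zinc finger protein that stimulates the enzyme (Entrez gene 297705, rn5 chromosome 4, 239043565 to 239094663, plus strand), measured 18.4 and 18.9 RPKM in replicates 1 and 2. Jarid2, which binds PRC2 together with Aebp2, has no row under its symbol. The row LOC681740, described as Jumonji-like, has the Entrez identifier that RefSeq names Jarid2 in the same assembly (rn5 chromosome 17, 22193529 to 22368315, minus strand). This row measured 196.8 and 197.6 RPKM in replicates 1 and 2, the second highest level of the PRC2 genes after Rbbp7. Jarid2 was 10.7 times as high as Aebp2 in replicate 1 and 10.4 times in replicate 2, and 4.72 and 4.77 times as high as Mtf2. Mtf2 was in turn 2.26 times as high as Aebp2 in replicate 1 and 2.19 times in replicate 2.

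Other genes tied to PRC2 were detected as well. Epop, which joins PRC2 to elongin, is listed as LOC691153 and measured 20.4 and 25.4 RPKM in replicates 1 and 2. Lcor, the locus that in mammals also encodes a PRC2 cofactor, was at 7.88 and 8.45 RPKM, and the table does not separate its transcripts. Ezhip was not analysed here. The order by mean level was Rbbp7, Jarid2, Suz12, Ezh2, Ezh1, Eed, Mtf2, Aebp2, Rbbp4, Phf1 and Phf19. Of the 10 pairs of neighbours in this order, Suz12 and Ezh2 overlapped over the replicates and the other 9 did not. Ezh2 and Ezh1 lay apart by less than their spread, and Eed and Mtf2 were apart by 44.4 against 41.7 RPKM at their nearest values. The exact Poisson interval of Mtf2 was 37.25 to 46.55 RPKM in replicate 1 and 37.01 to 46.19 RPKM in replicate 2. It held the value of Eed in each library, so counting error leaves the order of Eed and Mtf2 unresolved. The intervals of Aebp2 (15.08 to 22.32 RPKM) and Rbbp4 (11.91 to 18.48 RPKM) overlapped in replicate 1. In replicate 2 they did not (15.56 to 22.83 and 8.742 to 14.44 RPKM).

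**Figure D3:**
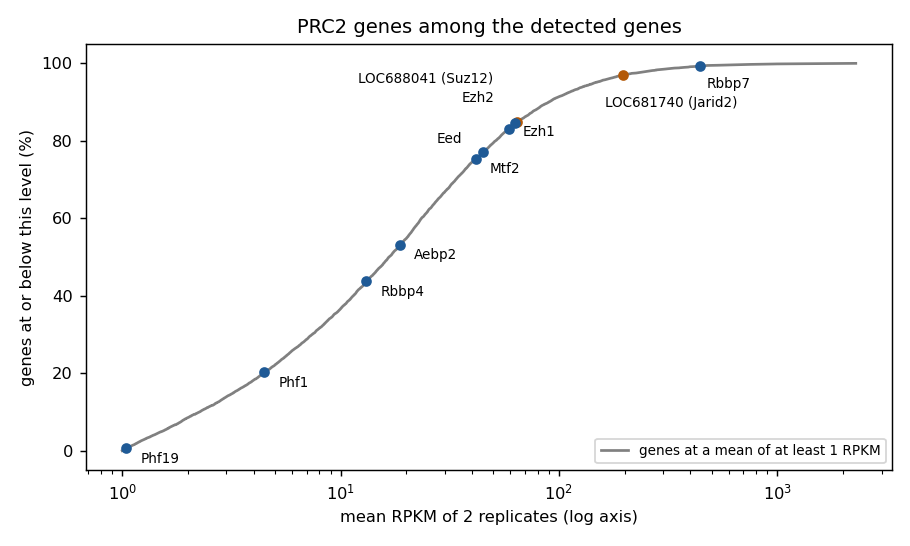
Share of the 10814 detected genes that lie at or below a given mean RPKM (log axis), with the PRC2 genes found by symbol in blue and those found by Entrez ID in orange. Ezh2, Ezh1 and Suz12 lie above 83.0% to 84.9% of the genes, Aebp2 near the middle at 53.1%, and Phf19 at the low end at 0.583%.

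The 2 libraries gave close values for most of the set. None of the 9 genes differed by over 1.5-fold between replicates in RPKM + 1, where 4.26% of the detected genes did. At so small a share, none of 9 does not set these genes apart. The added 1 also shrinks the ratio of Phf19, at 0.794 and 1.30 RPKM in replicates 1 and 2. The median log2 ratio, replicate 2 over replicate 1, was 0.04 over the 9 genes and -0.02 over the 10814 detected genes, and 5 of the 9 were higher in replicate 2. Rbbp4 had the ratio farthest below 0, at -0.37, and Phf19 the ratio farthest above it, at 0.36. The SD of this ratio over genes was 0.20 at 10 to under 30 RPKM, the range of Rbbp4, and 0.46 at 1 to under 3 RPKM, the range of Phf19. Ezh1 had a ratio of -0.14, where the SD was 0.14 at 30 to under 100 RPKM. The fibroblast and feeder markers Col1a1, Col3a1 and Thy1 were higher in replicate 2, as given above, while Dcn was at 0.207 and 0 RPKM in replicates 1 and 2. The part of such markers in these ratios was not tested.

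**Figure D4:**
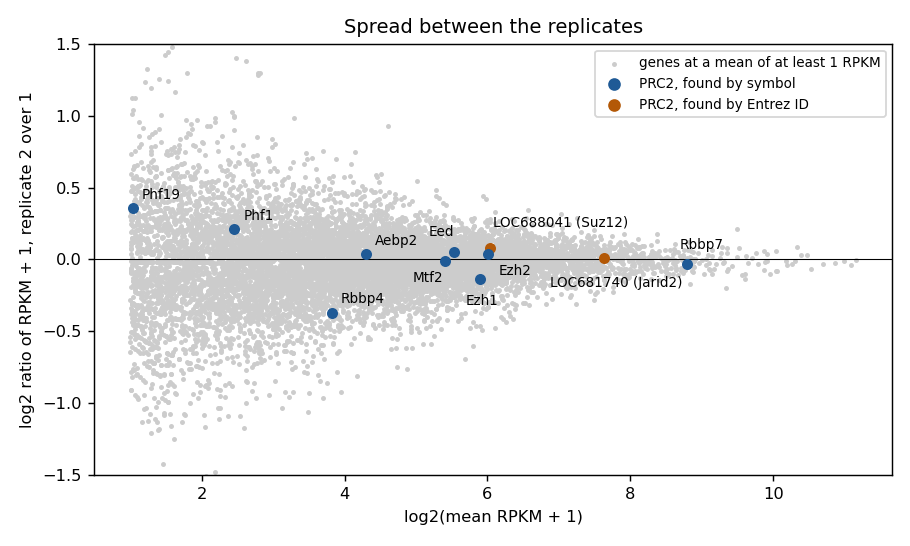
Log2 ratio of RPKM + 1, replicate 2 over replicate 1, against log2(mean RPKM + 1), for detected genes (grey), PRC2 genes found by symbol (blue) and those found by Entrez ID (orange); 24 genes lie beyond the vertical axis. Most PRC2 genes sit near 0, and Rbbp4 at -0.37 and Phf19 at 0.36 are the farthest from it.

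Enzymes that remove or compete with the mark were detected at lower or similar levels. Kdm6a, which removes methyl groups from lysine 27 of histone H3, measured 18.6 and 19.5 RPKM in replicates 1 and 2. Kdm6b, the other demethylase of this residue, was at 13.3 and 12.8 RPKM. Both lay below every value of Ezh1, Ezh2, Suz12 and Eed. Of the acetyltransferases that acetylate the same lysine, Ep300 measured 38.7 and 42.6 RPKM in replicates 1 and 2, and Crebbp measured 6.87 and 8.01 RPKM. All 5 methyltransferases of lysine 36 of histone H3, a mark that hinders PRC2, reached 1 RPKM, as did 46.4% of all genes. The list median of the 5 was 18.1 ± 0.488 RPKM. Nsd1 (49.1 ± 0.989 RPKM), Setd2 (43.5 ± 0.930 RPKM) and Nsd2 (18.1 ± 0.488 RPKM, listed as Whsc1) were highest. Ash1l (8.48 ± 0.766 RPKM) and Nsd3 (6.75 ± 1.73 RPKM, listed as Whsc1l1) were lowest.

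The products of the trithorax and COMPASS genes methylate lysine 4 of histone H3 and oppose Polycomb. Of 12 such genes 10 had a row, and all 10 were detected, as were 46.4% of all genes. Kmt2b and Setd1a were not analysed here. The median of the 9 PRC2 genes was 41.6 ± 0.212 RPKM, against 38.5 ± 0.0154 RPKM for the 10 trithorax and COMPASS genes. The SD of each list median given here is between the 2 replicates and leaves out the spread of genes. PRC2 genes ran from 1.05 RPKM (Phf19) to 440.4 RPKM (Rbbp7), and the other list from 7.32 to 392 RPKM. The 2 medians were therefore not told apart. The shared subunits Wdr5 (392 ± 2.11 RPKM), Dpy30 (172 ± 12.5 RPKM) and Ash2l (165 ± 1.99 RPKM) were highest. The catalytic genes Setd1b (LOC100359816, 7.61 ± 0.246 RPKM) and Kmt2c (LOC502710, 7.32 ± 0.341 RPKM) were lowest. Within PRC2 the catalytic genes stood close to Suz12 and Eed, while in this list the 2 lowest genes were catalytic.

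Rbbp4 and Rbbp7 also belong to the nucleosome remodelling and deacetylase, Sin3 and chromatin assembly complexes, so the level of Rbbp7 was set beside those partners. All 18 partner genes reached 1 RPKM, as did 46.4% of all genes. The list median of the 18 was 84.6 ± 5.08 RPKM. Chd4, the remodelling ATPase, was highest at 211 ± 2.78 RPKM, followed by Hat1 (152 ± 4.18 RPKM), the acetyltransferase partner of Rbbp7, and Sin3b (125 ± 11.0 RPKM). Sap18 (4.13 ± 0.365 RPKM) and Mbd2 (3.64 ± 1.10 RPKM) were lowest. Both values of Rbbp7 lay above those of all 18 partners, and both values of Rbbp4 lay below those of 14 of the 18.

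**Figure D5:**
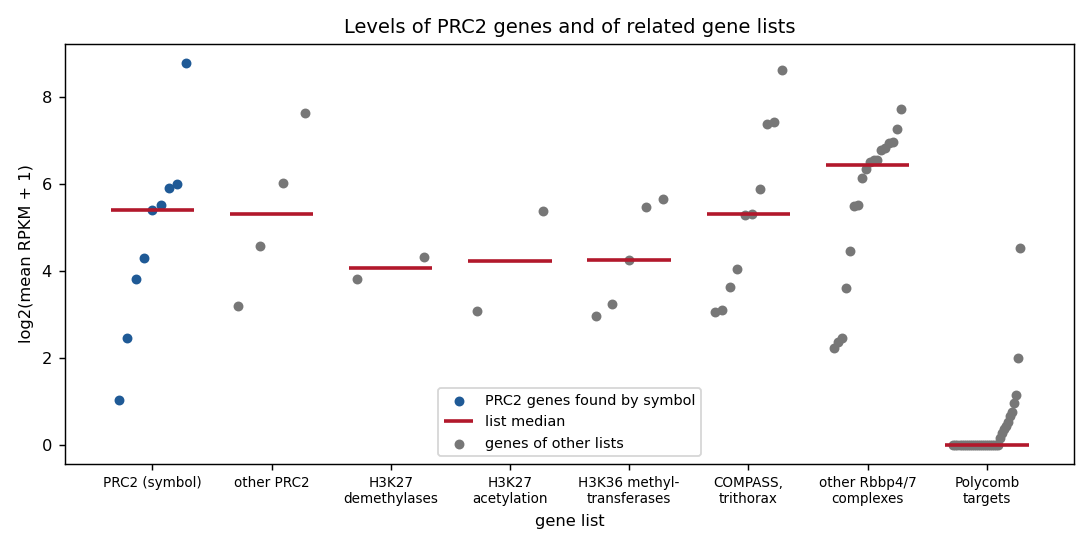
Log2(mean RPKM + 1) of each gene (points) and list medians (red bars) for the 9 PRC2 genes found by symbol (blue) and 7 related lists (grey). The median of the Polycomb target genes is 0, below the medians of the other lists, and Eomes is the highest of them at 21.9 RPKM.

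Textbook Polycomb targets, developmental regulators that carry the mark in mouse embryonic stem cells, were mostly listed at 0. Of 34 such genes 3 were detected, or 8.82%, against 46.4% of all genes, and 23, or 67.6%, were listed at 0 in both libraries, against 38.2% of all genes. Eomes, a T-box factor, was the exception at 21.6 and 22.3 RPKM in replicates 1 and 2. Hoxd9 was at 2.61 and 3.32 RPKM and the endoderm factor Sox17 at 1.15 and 1.27 RPKM. Foxa2 and Gata4 were among those at 0. The mark itself was not measured, so these levels do not show which genes it covers. A listed 0 can be a low level missed at read totals of 2991184 in replicate 1 and 3050685 in replicate 2, or a failed estimate. Of the 31 Hox genes in the table, counted after the values were seen, 1 (Hoxd9) reached 1 RPKM and 23, or 74.2%, were listed at 0 in both, beside the same 38.2% of all genes. On the log2(RPKM + 1) scale the median of the PRC2 genes lay 5.41 above that of the targets, whose median was 0.

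Genes with levels closest to those of the enzymes over the 2 samples were found by Euclidean distance of log2(RPKM + 1). For Ezh2 these were Cnot3 (distance 0.0056), Pdgfa (0.0124) and Ptk2 (0.0142). For Ezh1 they were Otud5 (0.0229), Rbm5 (0.0273) and Seli (0.0293). With 2 samples of 1 group, likeness here means no more than an equal level in both libraries.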

How the data were processed

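RNA of 2 samples of a rat embryonic stem cell line was sequenced from both ends with reads of 50 bp. The deposited file holds RPKM values, computed by the authors, in a column for each sample that carries the number in its title. The submitters' processing notes name CASAVA (1.8), TopHat (1.4.0) and the builds rn5 and Rnor_5.0. Which tool and annotation gave the RPKM values, and what was done with reads of several possible origins, is not given in the sources used here.

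The 23716 rows were summed by Entrez identifier to 23282 genes. Genes with a mean of 1 RPKM or more were called detected. Ratios are of RPKM + 1 on the log2 scale and so understate differences between low genes. The RPKM values are no counts, so no count test was used. Read totals are those under which more values of loci under 6000 bp came out as whole reads than under any other total searched, namely 527 of 2700 values in replicate 1 and 526 of 2688 in replicate 2. With them, 77.4% of 12970 rows above 0 in both libraries gave whole reads in both, within a relative tolerance of 3e-07, at a model length of at least 60 bp and at most 20000 bp or the locus. Rbbp7, Eed and Jarid2 were not among them. The totals search was tested on simulated data. List genes were matched by symbol, by older symbol or by Entrez identifier through a RefSeq table of GRCr8. Members and lists were chosen with earlier results of these data known. Named genes are all members, the 3 highest and 2 lowest of each list other than the cell type markers, and the 3 genes nearest to Ezh2 and to Ezh1; other genes, among them the markers named, were picked after their values were seen. Alternatives were another pseudocount, detection minimum or scaling, the highest row per gene, list means, a minimum for list members, and each replicate alone. The samples are separate per the labels, which do not say whether they came from separate cultures. Scripts ran in Python 3.11.15 (scipy 1.17.1, pandas 2.3.3, matplotlib 3.10.9, numpy 2.4.6).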

Additional observations from a re-analysis of the deposited data

How the results depend on the processing

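No result changed sign under any alternative run, but most could not have done so. Counts and levels are never negative. A ratio of 2 genes within a library keeps its sign under another pseudocount or scale. What the alternatives can show is how far the values move. A pseudocount of 0.1 gave log2 ratios of 3.19 for Mtf2 over Phf1, 5.22 for Mtf2 over Phf19, 2.03 for Phf1 over Phf19 and 8.70 for PRC2 genes over Polycomb targets. Rescaling each library to a sum of 1000000 raised the PRC2 median to 95.04 and gave 4.84 for Mtf2 over Phf19, 1.75 for Phf1 over Phf19 and 6.59 for PRC2 genes over targets, with 7 targets at 1 or more. The number of targets detected was 8 at a minimum of 0.3 RPKM and 1 at 3 RPKM. Members at 0.1 RPKM or more gave 4.86 for PRC2 genes over targets. List means gave a PRC2 level of 76.3 RPKM and a difference of 4.46. Chosen after the data were seen, adding Suz12 and Jarid2 gave a median of 45.1 RPKM and a difference of 5.53, and leaving out targets listed at 0 gave 4.86. By construction these alternatives change the pseudocount, the scale, the threshold, the members or the list statistic. Taking the highest row per gene moved no result of the 9 genes, each of which has 1 row. No paired analysis was possible because the samples form 1 group. Depth limits Phf19 most.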
